A study of Oryza sativa Indica Group with 4 samples.

Results

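In young panicles of Oryza sativa (Indica Group), 81 of 34316 tested probe sets had at least 2-fold more signal, on a log2(intensity + 16) scale, in bulks of many-grained lines than in bulks of few-grained ones. The 81 include 2 germin-like genes, GER8 and GER5, the bZIP gene BZIP02, 3 consecutive measured genes of chromosome 1, a long non-coding RNA gene and many probe sets with no single gene. The members were chosen by their own signal. Values were first quantile normalised over the arrays, and probe sets whose mean lay under the 40th percentile were dropped. A member had a mean difference of at least 1 on that scale, and both high arrays stood above both low arrays. Of the 87 probe sets that met these conditions, the 6 of PIP2-2, IRL3, H2B.10, EME1, LOC4337241 and LOC4336164 were left out by the rule. Since the contrast between the groups chose the members, their differences are a description and no test of them is given.

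RNA was taken from panicle primordia at the stage the submitters number 0. Each bulk pooled 10 recombinant inbred lines, which are near-homozygous descendants of a cross, here of 2 cultivars that the labels do not name. Panicles of the lines in one kind of bulk bore many grains (high grain number), and those in the other kind bore few (low grain number). Each kind was hybridised in 2 biological replications to an Affymetrix rice array, giving 4 arrays. The lines within a bulk are not seen singly, and the labels do not say whether both replications used the same lines. Because tissue was bulked, fewer cells of a type and less RNA per cell cannot be told apart.

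Grain number per panicle is set largely while the young panicle forms its branches and spikelets, since meristems of the inflorescence decide how many branches and flowers are made before they end in florets. Germin-like proteins are glycoproteins of the cell wall space with a cupin fold, and some of them bind manganese and act as superoxide dismutase or oxalate oxidase. They are known from cereals mainly for roles in defence and in early growth. bZIP proteins are transcription factors that dimerise through a leucine zipper and bind DNA through a basic region.

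The 4 arrays differed in brightness as deposited, with trimmed mean intensities of 36.5 to 55.3, the highest on low grain number replicate 2. Their medians were 4.90 to 6.50, so most probe sets were dim. Pearson correlations between arrays were 0.969 to 0.981 over the tested probe sets, which are not independent. The 3' to 5' ratios of actin and GAPDH, a sign of RNA integrity, were high on all 4 arrays, at 24.8 to 85.2. Those of ubiquitin and cyclophilin were 2.14 to 5.41. The first actin ratio was 33.3 and 36.9 on the high arrays against 42.2 and 47.8 on the low arrays. A second pair of actin features was also separated, at no more than 27.5 on the high arrays, and GAPDH gave 51.9 and 34.4 against 85.2 and 67.6. These 3 ratios were lower on both high arrays, whereas those of ubiquitin and cyclophilin overlapped between the groups. The part of this difference in the results below was not tested.

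The median difference of the 81 members was 1.2 on the log2(intensity + 16) scale, beside a median of 0.012 over all tested probe sets. That is 2.29-fold with the constant of 16 included, not a ratio of intensities. Differences ran from 1.004 to 2.23. The 87 raised probe sets were 0.254% of those tested, and both high arrays stood above both low arrays in 19.6% of all tested probe sets. In 29 of the 81, the lower high array was at least 2-fold above the higher low array on the same scale. The members spanned a wide range of signal, with mean intensities in the high bulks between 20.6 and 1370 and a median of 122. In the low bulks the median was 30.9. Both low arrays were under an intensity of 16, the constant added to every value, for 24 members, so a difference on this scale understates the ratio there. All 81 had 16 or more on both high arrays.

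**Figure D1:**
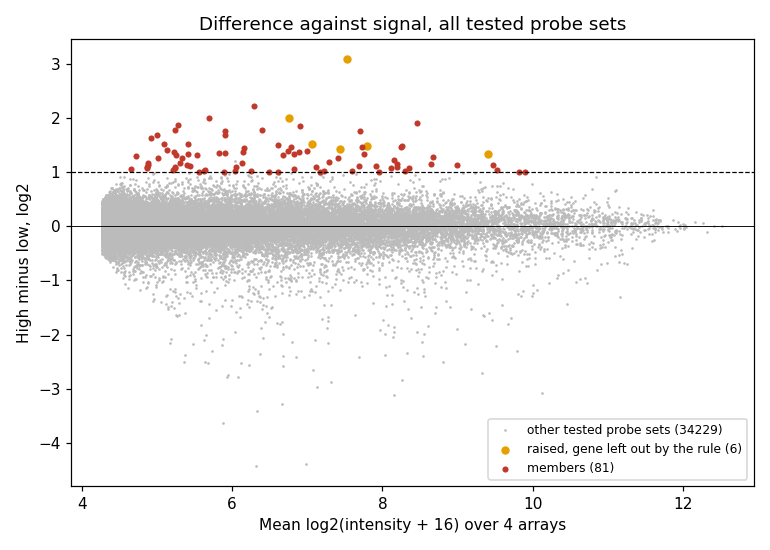
Difference between the high and low grain number bulks (vertical, log2) against mean signal over the 4 arrays (horizontal, log2(intensity + 16)), 1 point per tested probe set. The 81 members (red) lie at or above the dashed line at 1, with the 6 probe sets of genes left out by the rule in orange and all other tested probe sets in grey.

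Replicates of the high bulks were farther apart than those of the low bulks among the members. The median SD of the 2 high arrays was 0.293 for members and 0.156 for all tested probe sets, and for the 2 low arrays it was 0.140 and 0.137. The same arrays chose the members, so this is only a description. High grain number replicate 1 was the brighter high array for 45 of the 81, or 55.6%, beside 51.7% of all tested probe sets. In the text below, replicate 1 is given first in each pair, and errors are limma's moderated standard errors (SE).

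Germin-like genes gave 2 of the 3 members given here by a name other than a LOC number. Only names of the GER and BZIP series were taken from the gene table's synonyms, so other members may have names too. GER5 (LOC4345763) was the brighter, with intensities of 1227 and 880 on the high arrays against 567 and 432 on the low arrays. GER8 (LOC4325743) had 297 and 589 on the high arrays against 175 and 184 on the low arrays. The ID of this GER8 probe set ends in _s_at, so it can bind more than 1 transcript. For both genes each high array was above each low array, and in GER8 the widest margin was on high grain number replicate 2. The log2 differences were 1.05 ± 0.21 for GER5 and 1.15 ± 0.28 for GER8. Without high grain number replicate 2 that of GER8 was 0.68, and its 2 other probe sets, both dim at 10.8 to 29.1, differed by -0.03 and 0.03.

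The other genes with a GER number were then looked up, a choice made after these 2 members were seen. The gene table names 8 germin-like genes GER1 to GER8 on this array, and 6 of them were bright enough to be tested. Germin-like genes without a GER number were not searched, so these need not be the whole family. GER5 and GER8 are 2 of the 6 and were chosen for being higher, so only the other 4 bear on this named set. Of the 4, GER3, GER2 and GER6 have gene numbers close together (LOC4344838, LOC4344839 and LOC4344843), so they may not be separate observations. Of these 4, all were positive and 3 had both high arrays above both low arrays, beside 52.1% and 19.6% of all tested probe sets, but 3 of the 4 were dim. GER4 (LOC4327911), the brightest that was no member, had 133 and 151 on the high arrays against 91.5 and 106 on the low arrays, a log2 difference of 0.46 ± 0.21. GER3, GER2 and GER6 were dim, with intensities of at most 19.9 on any array. GER2 was at 19.9 and 0.25 on the high arrays against at 0.60 and 8.25 on the low arrays, so its groups overlap. GER1 and GER7 lay below the signal filter, at under 5 on every array. Summed over the 8 genes, intensity was 1691 and 1646 on the high arrays against 849 and 745 on the low arrays, of which GER5 and GER8 made up most. None of the 6 passed a limma adjusted p of 0.05 over all probe sets (3 had an unadjusted p under 0.05, GER5 and GER8 included).

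**Figure D2:**
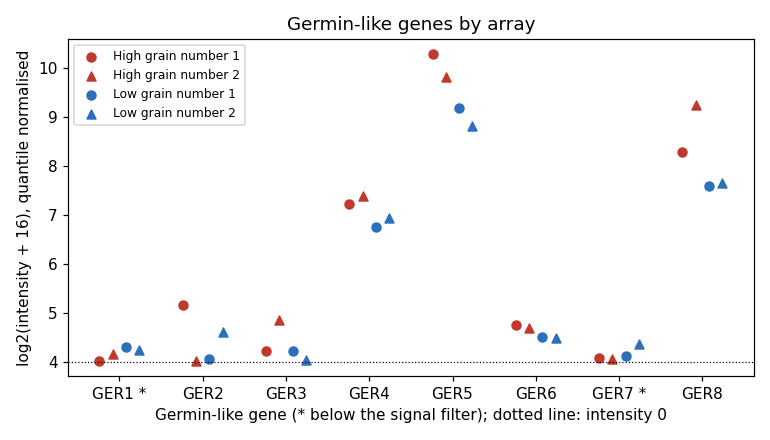
Signal of the 8 named germin-like genes on each array (vertical, log2(intensity + 16)), with high grain number arrays in red and low in blue and a marker shape for each replicate. GER4, GER5 and GER8 are the 3 bright genes, and in each both red points lie above both blue points; GER1 and GER7 (starred) are below the signal filter.

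BZIP02 (LOC4325565), a bZIP transcription factor gene, had 175 and 84.3 on the high arrays against 56.3 and 49.8 on the low arrays. Its log2 difference was 1.01 ± 0.29, and without high grain number replicate 1 it was 0.54. Genes named with a BZIP number did not share the direction as a set. The gene table gave 18 of them on this array, which need not be the whole family. Of the 17 that were tested, 8 had a positive difference, BZIP02 included, and the median was -0.01. BZIP06 (LOC4325139) came next to BZIP02, with 52.0 and 43.2 on the high arrays against 21.5 and 14.5 on the low arrays, a log2 difference of 0.91 ± 0.21. At the other end, BZIP60 (LOC4344086) had 75.1 and 99.2 on the high arrays against 201 and 164 on the low arrays (-0.95 ± 0.22). None of the 17 passed a limma adjusted p of 0.05 over all probe sets (3 had an unadjusted p under 0.05). BZIP06 and BZIP60 were picked for mention once their values were known.

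With the constant of 16 and all arrays, the largest difference among the members was that of LOC4326298, which lies in a run of 3 measured neighbours on chromosome 1. LOC4326298 had 255 and 89.3 on the high arrays against 18.2 and 21.9 on the low arrays, a log2 difference of 2.23 ± 0.36. Beside it, LOC4326297 had 293 and 212 against 105 and 83.8 (1.27 ± 0.23). LOC4326296 had 37.7 and 40.6 against 9.40 and 10.5 (1.09 ± 0.20). The order at the top depends on the setting. Without high grain number replicate 1 LOC4326298 differed by 1.56 and LOC4342991 by 2.32. With log2(intensity + 1) LOC4342861 led LOC4326298, at 3.58 beside 2.86, and with log2(intensity + 64) LOC9270481 did, at 1.66 beside 1.40. In each of the 3 genes of the run both high arrays were clear of both low arrays. High grain number replicate 1 was the brighter in LOC4326298 and LOC4326297 but not in LOC4326296.

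A bright member with a large difference was LOC9270481, a protein-coding gene of chromosome 2. It had 661 and 673 on the high arrays against 191 and 144 on the low arrays (1.91 ± 0.20). LOC4333210, on chromosome 3, had 387 and 352 against 82.1 and 114 (1.77 ± 0.22). LOC4338021, on chromosome 5, had 482 and 514 against 136 and 207 (1.48 ± 0.22). In these 3 genes the 2 high arrays agreed closely, and the gap between groups was many times the gap within the high group.

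For several bright members, by contrast, the replicates were far apart. LOC4331137 had 611 and 395 on the high arrays against 225 and 122 on the low arrays (1.47 ± 0.29). LOC4342716 had 878 and 444 against 288 and 209 (1.29 ± 0.29). LOC4333427 had 356 and 298 against 178 and 78.8 (1.33 ± 0.30). No group overlapped in these 3 genes, but the lower high array stood less than 2-fold above the higher low array in each. Without high grain number replicate 1 the difference of LOC4342716 was 0.81, and without low grain number replicate 2 that of LOC4333427 was also 0.81. LOC9269584 was measured by 2 members, and the brighter in the high bulks had 247 and 454 against 134 and 91.9 (1.47 ± 0.28). Its second probe set had 224 and 367 against 179 and 83.2 (1.12 ± 0.32), with the same array highest and the same array lowest, and 0.63 without low grain number replicate 2.

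LOC4342991 is the only member gene that the gene table classes as a long non-coding RNA. It had 67.7 and 112 on the high arrays against 15.4 and 5.23 on the low arrays (2.00 ± 0.27). Its low arrays were under the added constant of 16, so it went from near the floor of this scale to a moderate signal. LOC4342861 was of the same kind in its levels, with 57.0 and 30.2 against 9.08 and 0.25 (1.52 ± 0.28). It is a protein-coding gene.

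A group of protein-coding members was dim to moderate in the low bulks and several-fold brighter in the high bulks. LOC4341223 had 260 and 173 on the high arrays against 39.95 and 54.2 on the low arrays (1.86 ± 0.24). LOC4325989 had 135 and 146 against 26.9 and 31.7 (1.79 ± 0.21). LOC4333113 had 80.2 and 104 against 16.95 and 17.7 (1.69 ± 0.21). The low arrays of these genes differed by little, and every high array was at least 3 times as bright as either low array.

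Much the same shape, with a smaller gap, was seen in 6 further genes. LOC4337211 had 115 and 90.1 on the high arrays against 24.1 and 30.02 on the low arrays (1.46 ± 0.22). LOC4343034 had 212 and 171 against 70.2 and 55.8 (1.39 ± 0.22), and a second member of that gene had 113 and 51.8 against 33.4 and 26.73 (1.03 ± 0.29). LOC4342240 had 118 and 80.5 against 26.5 and 28.9 (1.38 ± 0.23). In these genes high grain number replicate 1 was the brighter high array. LOC9272276 had 224 and 135 against 53.1 and 61.9 (1.38 ± 0.25). LOC4326771 had 66.8 and 83.2 against 21.9 and 17.1 (1.36 ± 0.21). LOC4335171 had 154 and 140 against 49.1 and 48.5 (1.33 ± 0.20), with the 2 low arrays nearly equal.

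The other 22 named genes had differences between 1.00 and 1.22, close to the threshold. Of them 10 had a mean of 200 or more in the high bulks, and these were LOC4325346, LOC4341944, LOC4351314, LOC4336091, LOC4348119, LOC4349323, LOC9267585, LOC4333416, LOC4337187 and LOC4348123. LOC4351314 was among the tightest, with 1015 and 1063 on the high arrays against 492 and 434 on the low arrays (1.14 ± 0.17). LOC4336091 had 722 and 752 against 326 and 330 (1.13 ± 0.18). In both, replicates differed by little beside the gap between the groups. Another 5, LOC4337095, LOC4325150, LOC4343574, LOC4326296 and LOC4323858, had both low arrays under 16 and high arrays of 17.7 to 51.5. The remaining 7 were LOC4349331, LOC4343471, LOC4339158, LOC4338092, LOC4336036, LOC4333762 and LOC4333290, with high arrays of 45.9 to 174. LOC4336036 had the narrowest separation of all members, with 45.9 and 63.8 on the high arrays against 43.4 and 4.30 on the low arrays. Without low grain number replicate 2 its difference was 0.23.

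**Figure D3:**
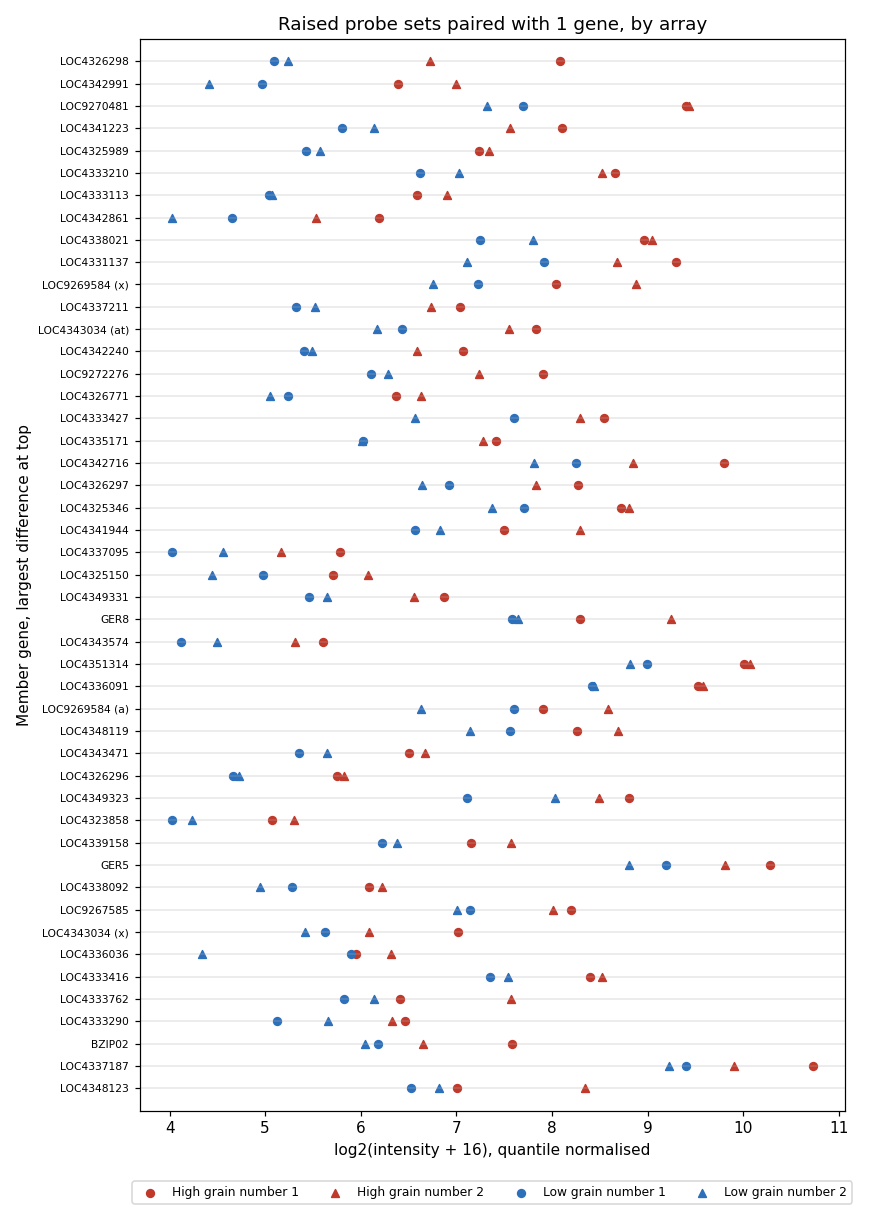
Signal of the 47 members paired with 1 gene on each array (horizontal, log2(intensity + 16)), 1 row per probe set ordered by its difference, with high grain number arrays in red, low in blue and a marker shape for each replicate. LOC4326298 is at the top; the blue and red points nearly touch in LOC4336036, and the letters after a repeated gene name are the ending of the probe set ID.

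The probe table paired 47 of the 81 members with 1 gene, 1 with several and 33 with none. The share with 1 gene was 58.0%, beside 56.3% of all tested probe sets. The 47 stand for 45 genes, of which 44 are protein-coding in the gene table. No role is annotated in the tables used here for the genes given here only by a LOC number. The 34 members without a single gene were dimmer than the rest, with a median of 56.4 in the high bulks beside 13.3 in the low ones, against 179 and 57.5 for the 47. Both low arrays were under 16 in 17 of the 34 and in 7 of the 47. Their differences ran from 1.005 to 1.88, with a median of 1.28. The largest was at 85.1 and 39.0 on the high arrays against 5.13 and 3.43 on the low arrays. The next was at 65.6 and 44.4 against 6.63 and 2.23 (1.79 ± 0.23). The brightest had a mean of 1370 in the high bulks.

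Probe sets whose ID ends in _s_at, _x_at or _a_at can bind more than 1 transcript. They made up 7, 9 and 3 of the 81 members, and the plain endings 76.5%, the same share as among all tested probe sets. Among the members 8 shared a cluster number in their IDs with another member, in 4 pairs, so those are not separate observations.

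At the edge of the rule, the 3 members with the smallest differences were those of LOC4348123 (1.0040), LOC4337187 (1.0052) and a probe set with no gene (1.0053). LOC4348123 had 309.7 on high grain number replicate 2 and no more than 113 on the other arrays. LOC4337187 had 1682 and 944 on the high arrays against 659 and 583 on the low arrays. The 3 probe sets just outside, with no overlap but a difference under 1, belonged to LOC4343033 (0.9979), LOC4338151 (0.9967) and LOC4335638 (0.9828). LOC4335638 had 764 and 895 on the high arrays against 379 and 445 on the low arrays, with less spread than several members. With these 3, 34 probe sets without overlap lay between 0.9 and 1, and 1 probe set with a difference of at least 1 overlapped between the groups. On this scale a difference of 1 needs a mean above the signal filter, so no probe set below it could meet the other conditions.

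A second look at the same transcripts came from the other probe sets of the members' genes, which the rule had not chosen. They were measured on the same arrays and show the same contrast, so they are not independent samples. Of the 45 genes, 12 had at least 1 other tested probe set, 22 in all. The median difference of the 22 was 0.16, beside 1.2 for the members and 0.012 for all tested probe sets. Of the 22, 14 were positive, 7 had both high arrays above both low arrays, which is 31.8% beside 19.6% of all tested probe sets, and 2 had them below. The rule bounds these values, since a tested probe set without overlap and with a difference of 1 or more is itself a member. Second members of the same gene, as in LOC9269584 (1.12) and LOC4343034 (1.03), are thus not among the 22.

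The agreement differed from gene to gene. LOC4326296 had a second probe set with 72.8 and 63.5 on the high arrays against 27.0 and 41.8 on the low arrays (0.75 ± 0.23). For LOC4348119 the other probe set was the brighter, with 1800 and 2261 against 1368 and 1306 (0.59 ± 0.16). LOC4325346 had 27.9 and 36.2 against 11.6 and 22.1 (0.56 ± 0.23). In these 3 genes the second probe set was higher in the high bulks without overlap, though by less than the member.

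In other genes the further probe sets did not share the difference, and in 3 of them those were much brighter than the member. LOC4333210, whose member was 1.77 higher, had a probe set at 2662 and 3051 on the high arrays against 3417 and 3417 on the low arrays (-0.26 ± 0.13). LOC4341944 had one at 3977 and 4148 against 4049 and 4263 (-0.03 ± 0.12), beside a member difference of 1.198 ± 0.27. LOC4333416 had 6 other tested probe sets with differences between -0.18 and 0.32, the 4 bright ones between -0.17 and 0.17. Another, dim probe set of LOC4333210 was higher without overlap (0.42 ± 0.18), so its probe sets disagreed in sign. LOC4343034 had a probe set at 295 and 203 against 202 and 211 (0.23 ± 0.22), and LOC4339158 one at 183 and 211 against 167 and 185 (0.15 ± 0.20), both overlapping. The 3 other tested probe sets of LOC4342991, whose member differed by 2.00, were dim and differed by 0.12 to 0.34. LOC4348123 had a brighter probe set at 435 and 1338 against 314 and 717, higher on average by 0.67 ± 0.45 but overlapping between groups. LOC4336036 also had a second probe set of the opposite sign, at 97.6 and 161 against 120 and 139 (-0.04 ± 0.25).

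**Figure D4:**
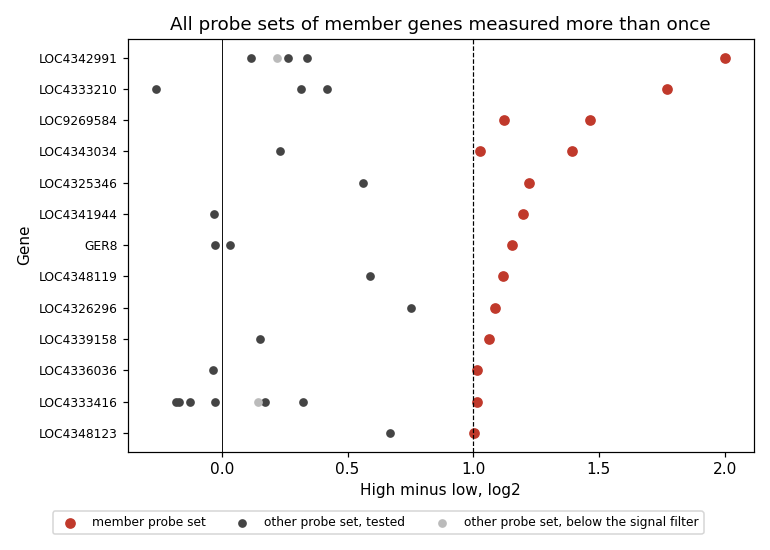
High minus low difference (horizontal, log2) of every probe set of the 13 member genes with more than 1 probe set, 1 row per gene, with members in red, other tested probe sets in dark grey and those below the signal filter in light grey. The dashed line at 1 is the threshold of the rule, which places red to its right; the grey points range from -0.26 to 0.75, and LOC9269584 has 2 members and no other probe set.

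Beyond the same gene, 24 tested probe sets shared a cluster number in their ID with a member but were not paired with a member gene. Of these 19 were positive and 13 were higher without overlap, or 54.2%, with a median of 0.35, while 1 was lower without overlap. Such probe sets can share target sequence with the member, which was not examined.

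Position in the genome was not used to choose the members, and it was read only as gene order from NCBI's table. The 45 genes lay on all 12 chromosomes, with 10 on chromosome 1 and 7 on chromosome 7. As a share of measured genes they ranged from 0.094% on chromosome 8 to 0.568% on chromosome 7, with 0.280% over the genome. Of the 45, 11 had another member within 10 measured genes, or 24.4%. Of the 16016 other measured genes, 4.96% lay that near to a member. The 11 genes formed 7 pairs in 5 stretches on chromosomes 1, 3, 4 and 10.

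The run on chromosome 1 was the densest, with LOC4326296, LOC4326297 and LOC4326298 side by side. Around it, the 20 other measured genes within 10 positions had a median difference of 0.20. Of these 20, 15 were positive, 9 had both high arrays above both low arrays, or 45.0% beside 19.6% of all tested probe sets, and none had them below. LOC4326300, next to LOC4326298, had a log2 difference of 0.79 ± 0.20. LOC4326149, 7 positions past LOC4326298, had 0.94 ± 0.25. Between these were genes near 0, such as LOC4326147 at 0.05 ± 0.17. Genes with a higher signal and genes near 0 lay among each other along the stretch. The neighbours named here and for chromosome 10 were picked with their values known.

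On chromosome 10, LOC4348119 and LOC4348123 were 4 measured genes apart. The 23 other genes of that stretch had a median of 0.17, with 9 higher and 4 lower without overlap. LOC4348120 and LOC4348122, both between the members, had 0.62 ± 0.22 and 0.59 ± 0.19. A second pair on chromosome 10, LOC4349323 and LOC4349331, stood among 23 genes with a median of 0.05, of which 3 were higher and 4 lower without overlap. On chromosome 4, LOC4337187 and LOC4337211 had 28 other genes around them with a median of -0.05, 3 higher and 5 lower. LOC4337211 lies 2 positions from EME1 (LOC4337213), which met the measured conditions but was left out by the rule. On chromosome 3, LOC4333416 and LOC4333427 had 26 genes around them with a median of 0.06, 6 higher and 5 lower. Neighbours higher without overlap made up 45.0% and 39.1% in the stretches of LOC4326298 and LOC4348119, and 10.7% to 23.1% in the other 3. The share of all tested probe sets lower without overlap is not given here, so nothing is read from the counts of lower neighbours.

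Over all member genes, the 795 measured genes within 10 positions had both high arrays above both low arrays in 21.4%, near the 19.7% of the 15221 genes farther away. Their median differences were 0.031 and 0.008. A difference of at least 0.5 without overlap was found in 33 of the neighbours, or 4.15%, and in 2.49% of the genes farther away. For the 86 genes directly next to a member, a distance chosen after the data were seen, 23 had both high arrays above both low arrays. Among them was LOC4343033, next to LOC4343034, with 65.2 and 29.1 on the high arrays against 13.6 and 15.1 on the low arrays. LOC4338093, next to LOC4338092, had 112 and 108 against 50.7 and 59.2 (0.83 ± 0.21). Both genes were chosen after their values were seen.

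**Figure D5:**
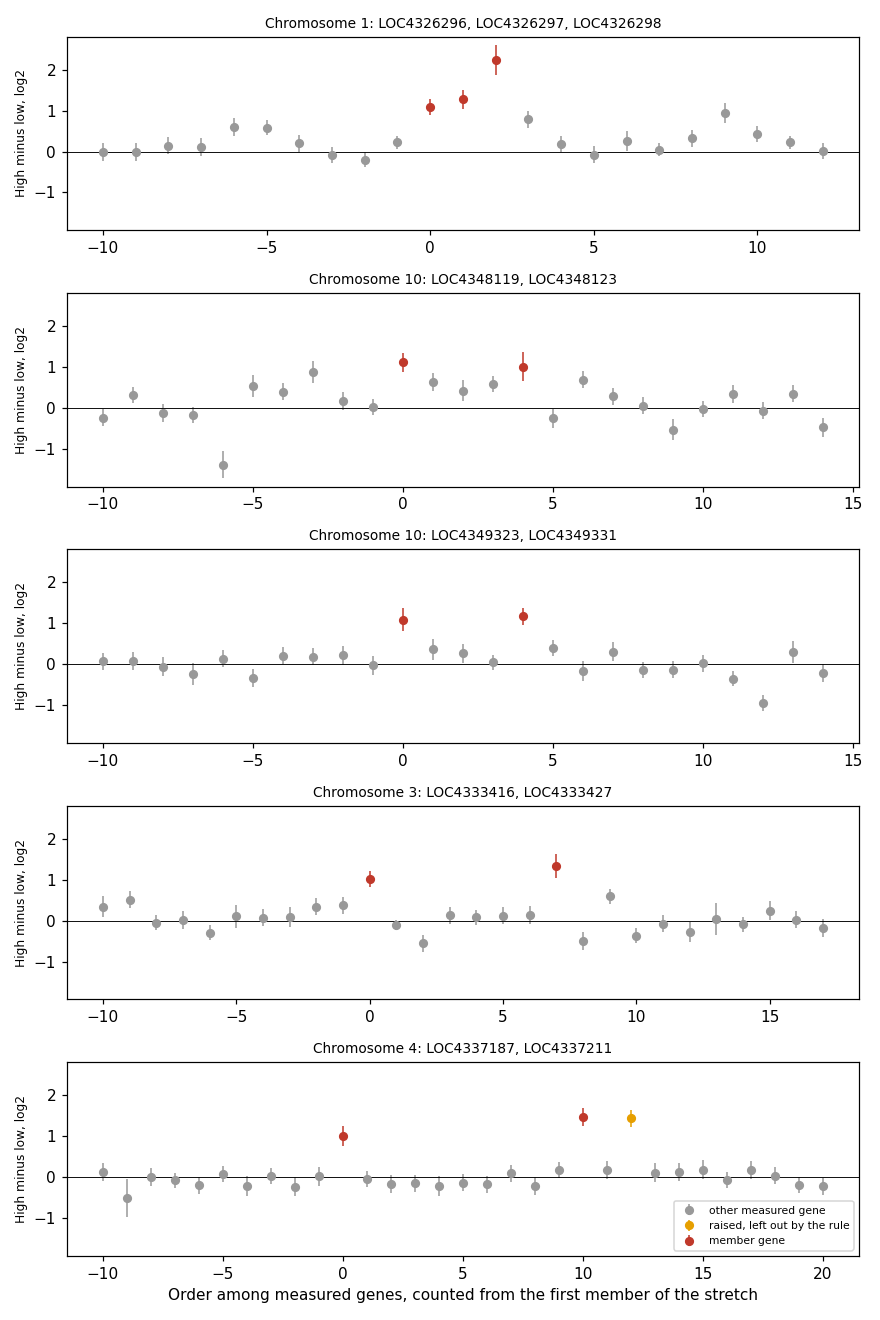
High minus low difference (vertical, log2, bars are the SE) of every measured gene in the 5 stretches where members lie within 10 measured genes of each other, in gene order counted from the first member (horizontal, number of measured genes). Members (red) are shown by their member probe set and other genes (grey) by their brightest one; the 3 members of chromosome 1 stand side by side and EME1 (orange) stands near LOC4337211.

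None of the members is among the matched genes of 7 lists that mark the panicle, other tissues or states. Unmatched names could not be looked up. Matches were 13 of 15 names for young panicle, 9 of 10 for floral organs and 8 of 9 for tapetum. They were 5 of 7 for secondary wall, 7 of 9 for heat response and 7 of 10 for cell division. A name can match a gene other than the one meant, and whether PAP2 (LOC4346460) is the panicle gene was not checked. Young panicle and meristem genes had 12 tested members of the list, PAP2 included, with a median of 0.00, and floral organ genes had 9 with a median of 0.03. In neither list did a gene pass a limma adjusted p of 0.05 (1 and 0 at an unadjusted p under 0.05). Of the 12 tested young panicle genes, 0 were higher without overlap, beside 19.6% of all tested probe sets, and 3 were lower. The lowest was SPL14, at 145 and 185 on the high arrays against 492 and 282 on the low arrays (-1.12 ± 0.26). It was picked with its values known. Shares of all tested probe sets lower without overlap, or at an unadjusted p under 0.05, are not given here. Such counts for the lists are thus only descriptions. Summed over 13 matched genes, the young panicle list was at 2744 and 2891 on the high arrays against 3433 and 2686 on the low arrays. Some of the labelled tissue's markers were thus present on all arrays, but not every one. FZP was below the signal filter, at no more than 1.28 on any array, and LAX1 was at 9.83 to 15.97. Cell division genes had a median of -0.27 over 7 tested genes, of which 1 was positive and none passed limma (2 at an unadjusted p under 0.05). In 4 of the 7 the high arrays were lower without overlap. Their sums were 2676 and 2554 on the high arrays against 2954 and 2974 on the low arrays. Photosynthesis genes matched only 3 of 14 names and none passed limma (0 at an unadjusted p under 0.05). Their median was -0.08, and their sums were 2532 and 2054 against 2627 and 2223.

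In 3 lists some genes fell, by limma at an adjusted p of 0.05: 4 of 7 heat response genes, 3 of 5 secondary wall genes and 1 of 8 anther tapetum genes. Of all 34316 tested probe sets, 195 passed that threshold in either direction, 53 of them higher. A positive difference was found in 52.1% of the tested probe sets. Heat response genes were summed at 5820 and 7294 on the high arrays against 14410 and 12520 on the low arrays, with all 7 below 0 in their difference. Secondary wall genes were summed at 414 and 352 against 657 and 823, with all 5 below 0. Anther tapetum genes were summed at 1487 and 1510 against 2124 and 2769, with 3 of 8 positive. The tapetum gene that fell was RTS, at 1.53 and 0.875 on the high arrays against 224 and 553 on the low arrays, chosen after its values were seen. The tapetum sum rested on RTS and C6, the only 2 of its genes lower without overlap. Without them the other 6 were summed at 1460 and 1216 against 1250 and 1223. The rule itself placed the members higher in the high bulks, so any gene lower there goes opposite to them. No link between the members and these lists is read from that. The part of tissue makeup in the members' differences was not tested.

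By limma over all 34316 probe sets, 53 were higher in the high bulks at an adjusted p of 0.05, or 0.154%, and 45 members were among those past the threshold. Since the rule used this contrast, nothing is read from that count. With the values as deposited, 78 of the 81 still had both high arrays above both low arrays, but 33 fell under a difference of 1, and 48 still met the whole rule. After median centring 49 did. The median of all tested probe sets was -0.075 with the values as deposited. The members lost there all had a difference of 1.17 or less in the main setting, so those near the threshold depend on how the arrays are scaled.

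Fewer members stayed past the threshold of 1 in every setting. With log2(intensity + 64), which weights bright probe sets, 18 members met the rule. Among the 6 other ways of processing, log2(intensity + 1), no filter and a 60th percentile filter each kept all 81 members. Without a filter no member could be lost, and a smaller constant widens these differences by construction. Only the values as deposited, median centring and log2(intensity + 64) removed any. In total 13 members met the rule under all 6 and without any 1 of the 4 arrays. Of these 11 have a gene: LOC4326298, LOC4342991, LOC9270481, LOC4341223, LOC4325989, LOC4333210, LOC4338021, LOC4331137, LOC9269584, LOC4343034 and LOC4325346. LOC9269584 and LOC4343034 each did so by 1 of their 2 members. Staying past 1 is not the same as moving little: over left-out arrays LOC4331137 ran from 1.07 to 1.89, while LOC4336091, which is not in this list, ran from 1.09 to 1.17. Other probe sets of LOC4342991, LOC4333210 and LOC4343034 did not share the members' difference, as given above. Leaving out 1 array lowered the difference by more than 1.5 times in 11 of the 47 members with 1 gene. Beside those given above, these were LOC4333762 (0.43) and LOC4348123 (0.33) without high grain number replicate 2, LOC4337187 (0.60) and the second member of LOC4343034 (0.57) without replicate 1 of that group, and LOC4349323 (0.63) without low grain number replicate 1. Without 1 array, 65 or 66 of the 81 met the rule. The probe sets raised by the rule then numbered 107 to 145 in place of 81, with 140 without high grain number replicate 1 and 145 without high grain number replicate 2.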

How the data were processed

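Biotin-labelled RNA of panicle primordia was read on Affymetrix rice arrays, per the labels. The deposited table gives 1 linear intensity for each probe set and array. GCOS 1.2, Affymetrix software, is listed without its role, per the submitters' processing notes. The scaling target is not given in the sources used here. From the table's 57381 probe sets, 187 controls were left out. Intensities were quantile normalised and put on the log2(intensity + 16) scale, and 34316 probe sets passed the 40th percentile filter. Limma 3.58.1, run in R 4.3.3 with a trended eBayes and group as the only term (two-sided, Benjamini-Hochberg at 0.05), was fitted to all of them and checked on simulated data. P-values cover only the spread between 2 arrays. The number of arrays limits the precision.

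Members and lists were chosen with earlier results of these data known. Every member with 1 gene is named. All 4 values are given for the 20 with the largest difference and for those with a GER or BZIP name, the only synonyms searched. Genes come from a probe table that can be old, with symbols from NCBI's gene table (assembly ASM3414082v1). The files name no build, so no coordinates are given. Gene order used 16067 measured genes, each by its brightest tested probe set. The germin-like and bZIP lists, like the distance of directly adjacent genes, were added after values were seen. Promoter and protein sequences were not analysed here. Other scalings, constants, filters, left-out arrays and a replicate block were tried.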

Additional observations from a re-analysis of the deposited data

How the results depend on the processing

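The number of probe sets raised by the rule (81) was 48 with the values as deposited, 49 after median centring, 1409 with log2(value + 1) and 18 with log2(value + 64). Of the 81 members, 48, 49, 81 and 18 still met the rule in those settings, and their median difference (1.2) was 1.63 and 0.82 with the last 2. A smaller or larger constant widens or narrows differences of dim probe sets by construction. The limma count (195, 45 of them members) was 391 after median centring and 128 with log2(value + 1). With no filter it was 0, with 0 members (limma, 3849 at an unadjusted p under 0.05, 79 of them members, smallest adjusted p 0.0743); the cause was not tested. With a replicate block it was 654, with 80 members. The labels do not say what a replicate number shares, and with 2 pairs the correlation of replicate deviations was 0.111. Without 1 array, 107 to 145 probe sets were raised, 65 to 66 members met the rule, the median was 1.2 to 1.32, and 53 to 229 probe sets and 5 to 33 members passed limma. The limma count was 90 (20 members) without high grain number replicate 1. Leaving out low grain number replicate 1 gave 54 (5 members), and leaving out replicate 2 of that group gave 53 (6 members). In these fits the spread of a single array is taken from the other group. Pairs of member genes (7) were 5 within 5 measured genes, 8 within 20, and 9 with the genes left out by the rule, the last an alternative chosen after seeing the data. Most probe sets are dim, which limits the differences of members under 16 in the low bulks.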
